A study of Homo sapiens with 51 samples.

Results

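MESP1, MESP2, TBX6, MSGN1, PDGFRA, TCF15 and MEOX1 are genes of nascent mesoderm, the cells that have just left the primitive streak, and of paraxial mesoderm, the tissue beside the neural tube that forms the somites. The 7 genes were chosen by name and looked up by symbol in a table of 58051 gene rows, 19603 of which held enough counts to be tested. All 7 were found and passed that filter. MSGN1 reached 10 counts in all 3 libraries of 2 groups only and MEOX1 of 1 group only. For these 2 genes passing the filter therefore already meant that groups differed. They are given as values and left out of the counts of called genes below, which cover the other 5. Only the closing section on processing counts all 7. Levels are in CPM, the usual RNA-seq scale in which the counts of a gene are divided by the scaled total of its library.

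RNA of H1 cells, an established line of human embryonic stem cells, was sequenced at 8 times from 1 to 96 h of differentiation and before treatment. The groups were cells given BMP4 alone at 50 ng/mL, cells given Activin at 100 ng/mL with BMP4 at 10 ng/mL, and untreated cells kept in mTeSR1 medium. Each of the 17 groups had 3 libraries, 51 in all. All treated cells were in TeSR E5 medium with insulin, FGF2 and a compound the labels spell LY29004. The 2 treatments differ in Activin and in BMP4 dose at once, and treated cells differ from untreated cells in medium too, so these factors cannot be told apart. All cells are of 1 line, and the labels number the replicates without naming separate cultures, and the p-values below therefore reflect only how far these libraries spread, which may be technical.

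In the embryo, epiblast cells become mesoderm as they pass through the primitive streak under WNT, NODAL, BMP and FGF signals and lose their epithelial contacts. MESP1 and MESP2 are neighbouring basic helix-loop-helix factors: MESP1 marks cells as they leave the streak, among them the precursors of the heart, and MESP2 places the borders between somites in the mouse. TBX6, a T-box factor, and MSGN1, another helix-loop-helix factor, act in the presomitic mesoderm of the mouse, where loss of Tbx6 lets neural tissue form in place of somites. PDGFRA, a receptor tyrosine kinase for platelet-derived growth factors, is carried by mesoderm widely. TCF15 (paraxis) and MEOX1 act later, when mouse somites become epithelial and are divided into their compartments.

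The regions before the start sites of MSGN1, MESP2 and TBX6 are shown because these 3 genes reached their highest or nearly highest level at the same time and in the same condition. RefSeq promoter entries (GRCh38.p14) matched these 3 genes and PDGFRA, 4 of 7, and MESP1, TCF15 and MEOX1 are only named. Each line gives the 250 bases before the start on the strand of the gene. Capitals mark every match, on either strand, to the E-box CANNTG bound by helix-loop-helix factors, the T-box site TCACAC, the T-box core ACACCT, the GATA site AGATAA or the LEF/TCF site CTTTGA.
MSGN1, chr2:17816210-17816459, plus strand: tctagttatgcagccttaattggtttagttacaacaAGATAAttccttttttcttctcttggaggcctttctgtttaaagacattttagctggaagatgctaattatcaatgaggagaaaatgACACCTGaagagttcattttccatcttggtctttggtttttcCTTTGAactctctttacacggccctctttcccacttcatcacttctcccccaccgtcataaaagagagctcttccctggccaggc
MESP2, chr15:89776082-89776331, plus strand: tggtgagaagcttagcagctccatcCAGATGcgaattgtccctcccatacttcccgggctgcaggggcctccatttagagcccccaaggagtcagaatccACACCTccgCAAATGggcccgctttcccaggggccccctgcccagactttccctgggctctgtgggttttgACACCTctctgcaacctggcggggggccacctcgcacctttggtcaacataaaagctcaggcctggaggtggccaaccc
TBX6, chr16:30091925-30092174, minus strand: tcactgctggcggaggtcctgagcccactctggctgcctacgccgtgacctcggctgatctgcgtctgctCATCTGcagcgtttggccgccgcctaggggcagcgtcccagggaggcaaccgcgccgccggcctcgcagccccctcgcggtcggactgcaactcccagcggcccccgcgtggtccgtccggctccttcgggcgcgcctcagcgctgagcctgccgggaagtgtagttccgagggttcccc
The MSGN1 window held a T-box core at positions -127 to -122 from the start that runs into the E-box CACCTG at -126 to -121. It also held AGATAA at -214 and CTTTGA at -85. The MESP2 window held 2 T-box cores, at -150 and -79, and 2 E-boxes, CAGATG at -225 and CAAATG at -141. The TBX6 window held a single E-box, CATCTG at -180, and no other match. Over 35116 windows of the same length, the E-box occurred in 61.8%, the site TCACAC in 9.90%, the core ACACCT in 9.57%, AGATAA in 9.17% and CTTTGA in 11.2%. A match is a description of the letters and shows no binding, and the core ACACCT was added to the search after the windows had been seen.

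Library totals ran from 22788905 to 30354633 counts (median 24944617). In 3 groups a library stood apart, with chi-square distances to the other 2 libraries of its group at least 3 times the distance between those, namely replicate 2 of Activin+BMP4 at 48 h, replicate 3 of Activin+BMP4 at 96 h and replicate 1 of BMP4 at 12 h. The label of stem cells was checked with 6 stem cell markers, among them POU5F1, SOX2 and NANOG. At 96 h they summed to between 3291 and 3487 CPM in BMP4 libraries and between 4119 and 4471 CPM in Activin+BMP4 libraries, against between 7917 and 8149 CPM in untreated libraries. The 6 markers did not move alike. Mean DNMT3B was higher with BMP4, at 720 CPM against 632 with Activin+BMP4. So was mean SOX2, at 152 CPM against 132, with overlapping libraries. The means of POU5F1, NANOG, LIN28A and TDGF1 were lower with BMP4. TDGF1 was at 175 CPM with BMP4, against 829 with Activin+BMP4 and 834 in untreated cells. In bulk RNA, fewer cells of a type and less RNA per cell cannot be told apart, which holds for every level below.

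MESP1, MESP2 and PDGFRA came on earlier with Activin+BMP4, and by 96 h these genes and TBX6 were higher with BMP4 alone. MSGN1 and MEOX1 passed 10 counts per group only with BMP4 at 72 or 96 h, and TCF15 was called in none of these comparisons. A gene was called between groups at an adjusted p under 0.05 over all 19603 genes and a change of at least 2-fold, from edgeR's quasi-likelihood test. Between BMP4 and Activin+BMP4 none of the 5 genes was called at 1, 6, 12 or 24 h by edgeR, and DESeq2 called 0 as well. The 1 unadjusted p under 0.05 among them was that of MESP1 at 24 h, which rests on 0 against 3 counts. Over all genes, 0.00510% were called at 1 h, 0.505% at 6 h and 1.42% at 12 h, and at 24 h 2.41% were higher and 1.60% lower with BMP4. At 36 h MESP1, MESP2 and PDGFRA were lower with BMP4, 3 of 5 against 2.56% of all genes, and none was higher against 3.02% (0 also by DESeq2 and at an unadjusted p under 0.05). At 48 h TBX6 joined them, 4 of 5 against 4.39% of all genes, with none higher against 4.86% (0 also by DESeq2 and at an unadjusted p under 0.05). At 72 h MESP1, MESP2 and TBX6 were higher with BMP4, 3 of 5 against 5.07%, and none was lower against 4.56% (0 by DESeq2 and 1, TCF15, at an unadjusted p under 0.05). At 96 h MESP1, MESP2, TBX6 and PDGFRA were higher with BMP4, 4 of 5 against 7.62% of all genes, and none was lower against 7.95% (0 by DESeq2 and again TCF15 at an unadjusted p under 0.05). The median log2 fold change of the 5 genes was -1.92 at 48 h (that of MESP2) and 2.41 at 96 h (that of TBX6), beside -0.0041 and 0.0049 over all genes tested.

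**Figure D1:**
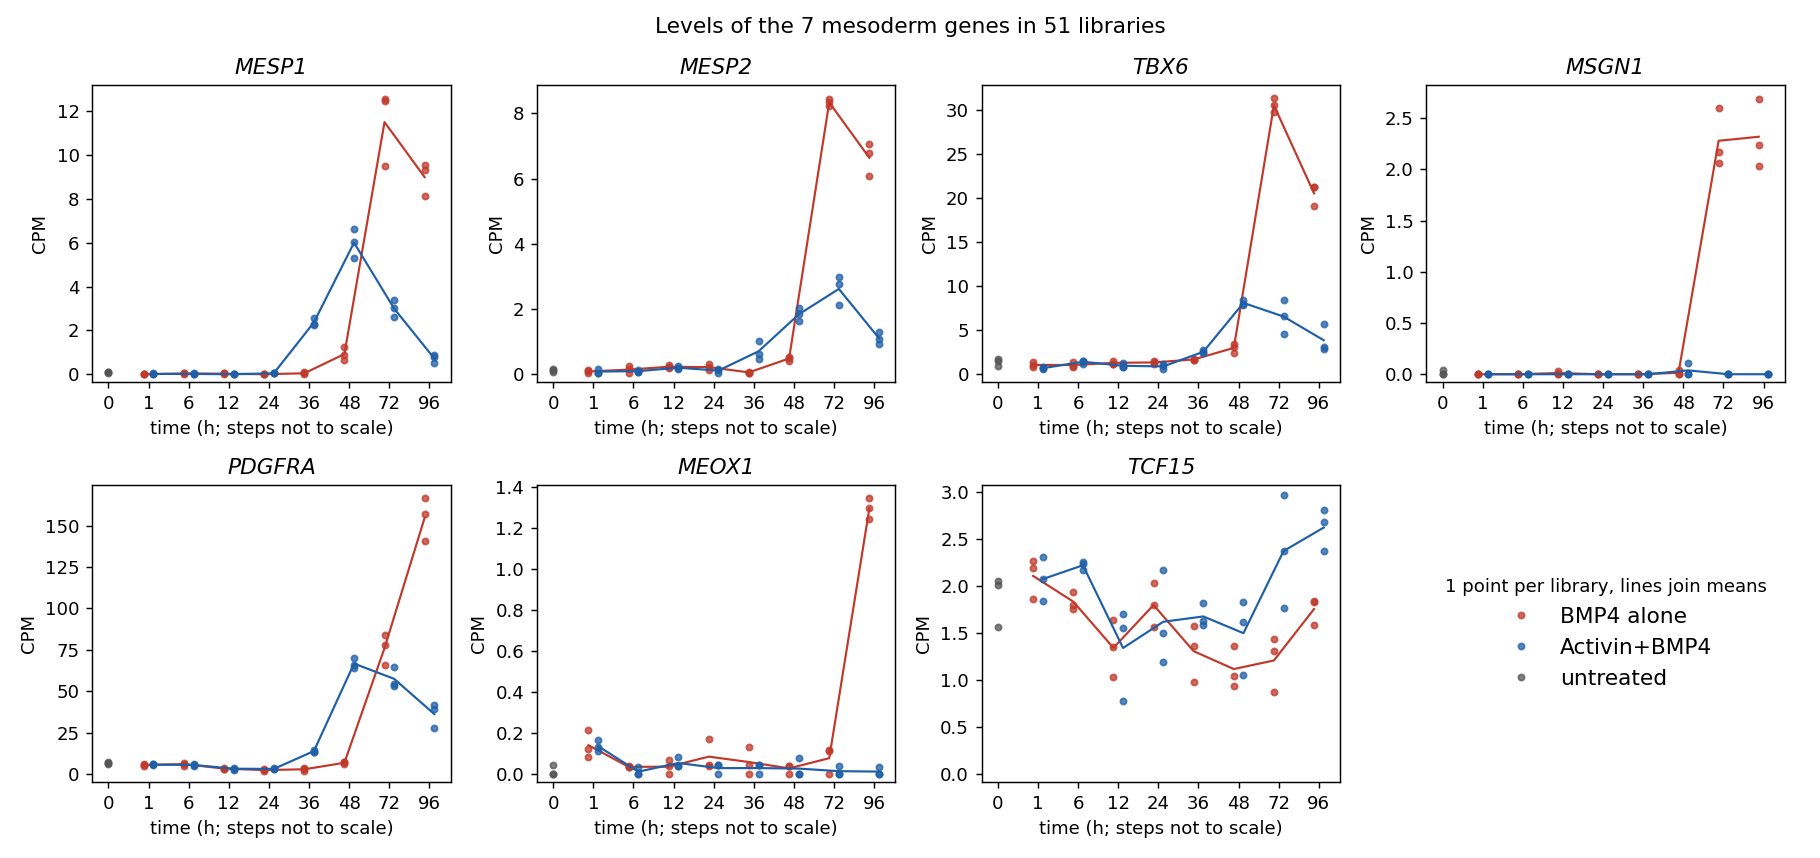
Level of each of the 7 genes in CPM (linear y axis from 0, one scale per gene) at each time in hours; points are single libraries (red, BMP4 alone; blue, Activin+BMP4; grey, untreated) and lines join the means of 3. MESP1, MESP2, TBX6 and PDGFRA rise by 48 h with Activin+BMP4 and stand higher with BMP4 at 96 h, MSGN1 and MEOX1 pass 10 counts per group only with late BMP4, and TCF15 stays between 0.77 and 2.97 CPM throughout.

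MESP1 was near the floor until 24 h, at 0 to 3 counts per group from 1 h on in both conditions and 5 counts over the 3 untreated libraries. At 36 h the BMP4 libraries held 0, 2 and 1 counts of MESP1, against 60, 52 and 56 counts in Activin+BMP4 libraries. The groups did not overlap, and the ratio of Activin+BMP4 over BMP4 was 55.9 (95% interval for counting error 18.8 to 274). At 48 h MESP1 was at 1.24, 0.855 and 0.661 CPM with BMP4, against 6.65, 5.32 and 6.04 CPM with Activin+BMP4, and every BMP4 library lay below every Activin+BMP4 library (log2 fold change -2.70 ± 0.22 SE, edgeR adjusted p = 1.37e-12). By 72 h the order had turned, with 12.6, 12.5 and 9.49 CPM in BMP4 libraries and 2.61, 3.01 and 3.37 CPM in Activin+BMP4 libraries. All 3 BMP4 libraries were higher (1.94 ± 0.19, edgeR adjusted p = 1.2e-10). At 96 h MESP1 averaged 8.99 ± 0.74 CPM with BMP4, against 0.719 ± 0.198 with Activin+BMP4 (SD, n = 3 each), a log2 fold change of 3.64 ± 0.22 (edgeR adjusted p = 1.7e-16). MESP1 thus peaked at 48 h with Activin+BMP4, at 6.00 ± 0.66 CPM, and at 72 h with BMP4, at 11.5 ± 1.75 CPM.

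MESP2 had a similar course at lower levels and fell later with Activin+BMP4. At 48 h it was at 0.504, 0.407 and 0.537 CPM with BMP4, against 2.04, 1.62 and 1.84 CPM with Activin+BMP4 (log2 fold change -1.92 ± 0.26, edgeR adjusted p = 7.38e-08). At 72 h it was at 8.22, 8.45 and 8.34 CPM with BMP4, against 2.12, 2.97 and 2.76 CPM with Activin+BMP4. The groups did not overlap at either time, with BMP4 lower at 48 h and higher at 72 h (1.67 ± 0.20, edgeR adjusted p = 2.73e-09). At 96 h the BMP4 mean was 6.64 ± 0.51 CPM (SD, n = 3), against libraries of 1.297, 1.07 and 0.940 CPM with Activin+BMP4 (log2 fold change 2.59 ± 0.21).

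The balance of the MESP pair shifted with time in the Activin+BMP4 groups. MESP1 made up 77.6% ± 5.7 of the MESP1 and MESP2 counts at 36 h with Activin+BMP4, 76.6% ± 0.1 at 48 h, 53.5% ± 2.7 at 72 h and 39.2% ± 6.6 at 96 h (SD, n = 3 libraries each). With BMP4 the share was 64.7% ± 8.4 at 48 h, 57.8% ± 3.9 at 72 h and 57.5% ± 0.8 at 96 h. At 96 h the BMP4 libraries lay between 56.8% and 58.4% and the Activin+BMP4 libraries between 31.9% and 44.9%, so the groups did not overlap. This difference in share was not tested. The genes lie on chromosome 15 with 9280 bases between them (GRCh38, GENCODE 29), MESP1 at chr15:89748661-89751310 on the minus strand and MESP2 at chr15:89760591-89778754 on the plus strand. The 9280 bases are measured to the GENCODE start of MESP2. The RefSeq start used for the window above lies inside this span, further from MESP1. Their transcripts share exact runs of at most 48 bases, so a read longer than that fits both only with mismatches. How reads were split between them in counting was not examined.

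**Figure D2:**
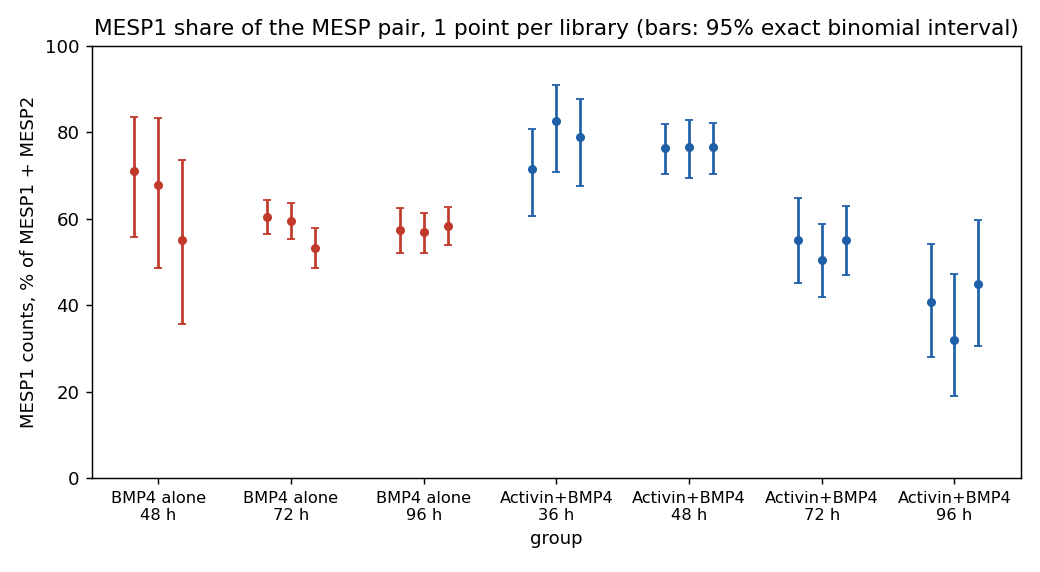
MESP1 counts as a percentage of MESP1 plus MESP2 counts (y axis from 0 to 100%) in each library of the groups with at least 29 such counts per library, BMP4 alone in red on the left and Activin+BMP4 in blue; bars are exact (Clopper-Pearson) 95% binomial intervals, which cover counting error only. The Activin+BMP4 libraries run from 71.4 to 82.5% at 36 h and lie between 31.9 and 44.9% at 96 h, while the BMP4 libraries at 72 and 96 h lie between 53.2 and 60.5%.

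TBX6 was at 1.37 ± 0.45 CPM before treatment (n = 3), where MESP1 had 5 counts and MESP2 had 9 counts over the 3 libraries. At 48 h it was at 3.41, 3.13 and 2.44 CPM with BMP4, against 8.02, 7.90 and 8.41 CPM with Activin+BMP4. The BMP4 libraries were all lower (log2 fold change -1.43 ± 0.20, edgeR adjusted p = 9.96e-08). At 72 h TBX6 was at 29.8, 30.6 and 31.4 CPM with BMP4, against 4.60, 6.68 and 8.40 CPM with Activin+BMP4, again with no overlap and now with BMP4 higher (2.21 ± 0.18, edgeR adjusted p = 5.14e-14). At 96 h it was at 19.1, 21.3 and 21.3 CPM with BMP4, against 2.85, 3.05 and 5.71 CPM with Activin+BMP4 (2.41 ± 0.18, edgeR adjusted p = 6.89e-15). The highest of these Activin+BMP4 values was that of replicate 3, the library that stood apart at 96 h. Without the libraries that stood apart the log2 fold change of TBX6 was 2.80 at 96 h and -1.45 at 48 h. TBX6 lies at chr16:30085793-30091887, minus strand.

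MSGN1, a single-exon gene at chr2:17816496-17817101 in GENCODE 29, was on the floor in every group but the late BMP4 ones. BMP4 libraries held 76, 58 and 52 counts at 72 h and 70, 62 and 62 counts at 96 h, while the Activin+BMP4 libraries held 0 at both times. Taking 3 counts per group of 3 libraries as the floor, MSGN1 was at least 55.8-fold higher with BMP4 at 72 h and at least 65.7-fold higher at 96 h. Its mean with BMP4 was 2.28 ± 0.29 CPM at 72 h and 2.32 ± 0.34 CPM at 96 h, levels that overlapped. Elsewhere it had at most 3 counts per group, and the 3 counts of Activin+BMP4 at 48 h were all in replicate 3.

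PDGFRA was expressed before treatment and first fell in both conditions. At 24 h it was at 2.46, 2.92 and 1.68 CPM with BMP4 and at 2.79, 3.34 and 2.99 CPM with Activin+BMP4, against 6.03, 6.80 and 6.96 CPM in untreated libraries, and all treated libraries lay below all untreated ones. The log2 fold change against untreated cells at 24 h was -1.49 ± 0.20 with BMP4 and -1.11 ± 0.19 with Activin+BMP4 (edgeR adjusted p = 7.98e-08 with BMP4 and 7.09e-06 with Activin+BMP4). With Activin+BMP4 it then rose to 13.3, 13.6 and 14.6 CPM at 36 h and 63.8, 66.1 and 70.2 CPM at 48 h. With BMP4 it was still at 2.07, 2.82 and 3.59 CPM at 36 h and 7.05, 5.86 and 7.36 CPM at 48 h. The conditions did not overlap at either time, and the difference at 48 h was a log2 fold change of -3.30 ± 0.13 (edgeR adjusted p = 3.32e-24).

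Between 48 and 72 h PDGFRA rose with BMP4, while with Activin+BMP4 it was 57.5 ± 6.28 CPM at 72 h (n = 3). At 72 h the BMP4 libraries were at 66.0, 84.1 and 78.1 CPM, against 53.2, 54.5 and 64.7 CPM with Activin+BMP4. The groups lay close without overlap, and the log2 fold change of 0.40 ± 0.10 (edgeR adjusted p = 0.00131) was under 2-fold. At 96 h PDGFRA was at 141, 167 and 157 CPM with BMP4, against 39.3, 41.7 and 27.6 CPM with Activin+BMP4 (2.10 ± 0.10, edgeR adjusted p = 3.64e-21). The lowest of these values was again Activin+BMP4 replicate 3, and without the libraries that stood apart the log2 fold change was 1.93. PDGFRA lies at chr4:54229097-54298247, plus strand, and 15.8% of its exon length is shared with ENSG00000282278, an annotated gene on the same strand, so the split of reads between them is uncertain. ENSG00000282278 held between 11.2% and 32.1% of the counts of both by group. With both summed the ratio of BMP4 over Activin+BMP4 means was 0.109 at 48 h, 1.32 at 72 h and 4.29 at 96 h, against 0.101, 1.32 and 4.28 for PDGFRA alone.

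The somite genes behaved differently from each other. TCF15, which helps mouse somites become epithelial, averaged between 1.12 and 2.62 CPM in the treated groups, against 1.88 ± 0.27 CPM in untreated cells (SD, n = 3). It was called in none of the 16 comparisons with untreated cells by edgeR (0 by DESeq2 and 6 at an unadjusted p under 0.05). In 3 of them the edgeR adjusted p was under 0.05, with a change under 2-fold. At 72 h it was at 1.44, 1.31 and 0.873 CPM with BMP4, against 1.77, 2.97 and 2.38 CPM with Activin+BMP4. The groups did not overlap, yet the log2 fold change of -0.97 ± 0.23 was just short of 2-fold (edgeR adjusted p = 0.000628). It passed 2-fold when any 1 of 3 libraries was left out, at -1.13 without Activin+BMP4 replicate 1, -1.11 without BMP4 replicate 1 and -1.02 without BMP4 replicate 2. At 96 h TCF15 averaged 1.75 ± 0.15 CPM with BMP4, against 2.62 ± 0.23 with Activin+BMP4 (-0.58 ± 0.21, edgeR adjusted p = 0.0207), so its sign was opposite to that of MESP1, MESP2, TBX6 and PDGFRA.

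MEOX1, a homeobox gene of the mouse dermomyotome and sclerotome, passed 10 counts in 1 group. BMP4 libraries at 96 h held 35, 36 and 38 counts, against 0, 0 and 1 in Activin+BMP4 libraries, a ratio of 111 with a counting interval of 19.5 to 4411. Its level there lay between 1.24 and 1.34 CPM (n = 3), in the group with the highest PDGFRA and MSGN1 means. At 72 h it had 6 counts over the BMP4 group and 1 over the Activin+BMP4 group, a ratio of 5.40 whose interval of 0.655 to 248 includes 1. At 1 h it had 10 counts in each condition, against 1 in untreated libraries. TCF15 lies at chr20:603797-610398 and MEOX1 at chr17:43640388-43661954, both on the minus strand.

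**Figure D3:**
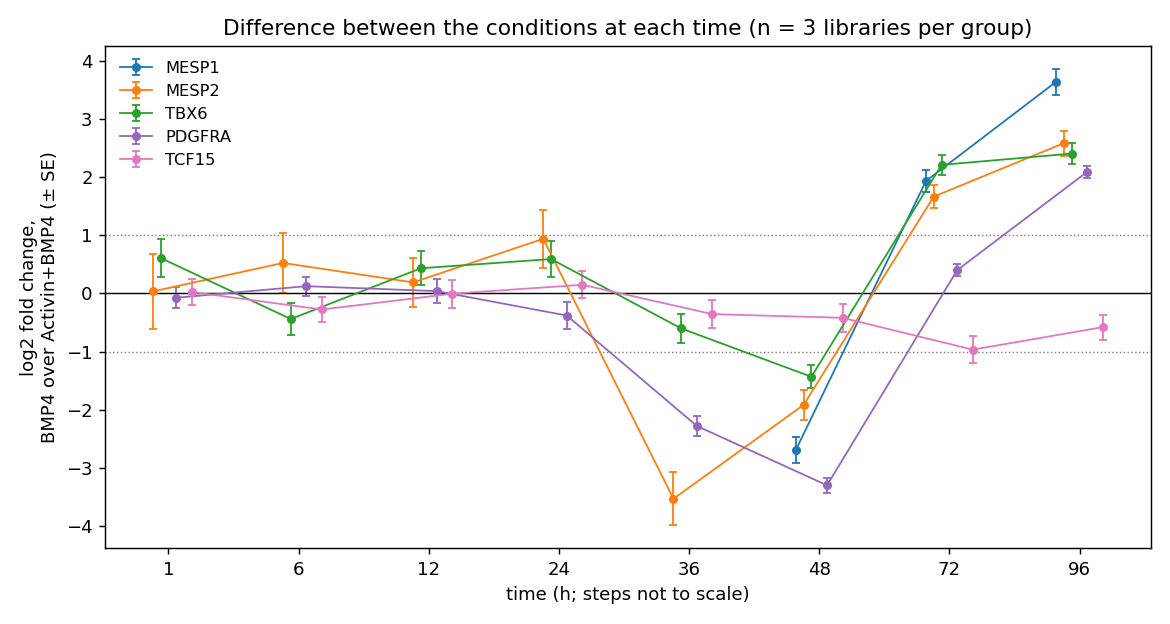
Log2 fold change of BMP4 over Activin+BMP4 (y axis; bars are ± 1 SE from edgeR, n = 3 libraries per group) at each time in hours, with dotted lines at 2-fold; points are left out where a group had 3 counts or fewer, and MSGN1 and MEOX1 are not drawn. MESP1, MESP2, TBX6 and PDGFRA lie below 0 at 48 h, with values of -2.70, -1.92, -1.43 and -3.30, and above 0 at 96 h, while TCF15 lies below 0 at 72 and 96 h.

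Set against untreated cells, the time at which each gene was first called higher differed between the conditions. A first call depends on the untreated level, which averaged 6.59 CPM for PDGFRA and 0.0682 CPM for MESP1, so these times give no order of onset among the genes. With BMP4, MESP1, MESP2 and TBX6 were first called higher at 48 h (3 of 5 genes, against 8.15% of all genes) and PDGFRA at 72 h (4 of 5, against 11.0%), and the 4 were called again at 96 h (against 14.6%). The call of TBX6 at 48 h was lost without untreated replicate 2, at a log2 fold change of 0.89. With Activin+BMP4, MESP1, MESP2 and PDGFRA were first called at 36 h (3 of 5, against 6.25%) and TBX6 at 48 h (4 of 5, against 9.24%). Without untreated replicate 1, TBX6 was called at 36 h too, at 1.12. The same 4 genes were called at 72 h (against 12.7% of all genes) and at 96 h (against 16.5%). All these comparisons share the 3 untreated libraries. PDGFRA was called lower with BMP4 at 12, 24 and 36 h, where 2.01%, 2.29% and 2.73% of all genes were lower, and with Activin+BMP4 at 12 and 24 h, where 3.08% and 3.70% were lower. Its call with BMP4 at 12 h, a log2 fold change of -1.01 ± 0.18, was lost when BMP4 replicate 1 or untreated replicate 2 or 3 was left out. Its call with Activin+BMP4 at 12 h, at -1.06 ± 0.19, was lost without Activin+BMP4 replicate 2, at -0.94. The other lower calls, MESP1 with BMP4 at 24 h and with Activin+BMP4 at 12 h, rest on 0 counts against 5. With 3 counts put in place of 0 they come to 1.64-fold and 1.70-fold lower. These values leave out the counting error of the 5 and set no sure bound. Both were lost without any 1 of the 3 treated libraries or untreated replicate 2 or 3.

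Between neighbouring times, the 2 conditions rose over different steps. With BMP4, 3 of 5 genes rose from 36 to 48 h (MESP1, MESP2 and PDGFRA, against 1.82% of all genes higher) and 4 from 48 to 72 h (all but TCF15, against 3.91%). From 48 to 72 h TBX6 rose by a log2 fold change of 3.35 ± 0.19, MESP2 by 4.10 ± 0.24 and PDGFRA by 3.49 ± 0.13. PDGFRA alone of the 5 was called higher from 72 to 96 h (against 3.98%), by 1.03 ± 0.10, a call lost without BMP4 72 h replicate 1 or BMP4 96 h replicate 2. With Activin+BMP4, MESP1, MESP2, TBX6 and PDGFRA rose from 24 to 36 h (4 of 5, against 2.07%) and again from 36 to 48 h (4 of 5, against 2.58%). None of the 5 was called from 48 to 72 h by edgeR, against 1508 of all 19603 genes in either direction. DESeq2 called 1, MESP1, and 4 were at an unadjusted p under 0.05. MESP1 was at -0.998 ± 0.194 on the log2 scale over this step. It passed 2-fold without replicate 2 of 48 h or replicate 3 of 72 h. From 72 to 96 h MESP1 fell by 2.06 ± 0.24 and MESP2 by 1.25 ± 0.22 on the log2 scale (2 of 5, against 1.07% lower). TBX6 joined them without replicate 3 of 96 h, at -1.16. With Activin+BMP4 from 1 to 6 h, 1 of 5 genes was called against 5.11% of all genes in either direction. TBX6 was higher, at 1.42 ± 0.18 CPM at 6 h, against 0.684 ± 0.113 CPM at 1 h, and the call was lost without replicate 1 of 1 h or replicate 2 of 6 h. MEOX1 had 1 count at 6 h, against 10 at 1 h.

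The change in the difference between conditions was tested directly. From 48 to 96 h the log2 fold change of BMP4 over Activin+BMP4 increased for 4 of 5 genes, all but TCF15, against 7.22% of all genes. The interaction was 6.34 ± 0.32 for MESP1, 4.50 ± 0.34 for MESP2, 3.84 ± 0.27 for TBX6 and 5.40 ± 0.17 for PDGFRA (edgeR adjusted p at most 6.84e-15 for these 4). From 24 to 96 h the interaction was called for 4 of 5 genes, against 5.73% of all genes higher, among them TBX6 at 1.82 ± 0.37 and PDGFRA at 2.48 ± 0.26. That of MESP1 rests on 0 against 3 counts at 24 h. That of MESP2, at 1.65 ± 0.60, was lost with no low-count filter, without the libraries that stood apart, and without Activin+BMP4 24 h replicate 1 or 2, Activin+BMP4 96 h replicate 3, BMP4 24 h replicate 1 or 2 or BMP4 96 h replicate 2.

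Ordered by level, the groups of BMP4 at 72 and 96 h were the highest 2 for MESP1, MESP2, TBX6, MSGN1 and PDGFRA. For MEOX1, BMP4 at 96 h was highest and the 1 h groups of BMP4 and of Activin+BMP4 came next. For MESP1 the order was BMP4 at 72 h, BMP4 at 96 h, then Activin+BMP4 at 48, 72 and 36 h, and only the first pair overlapped. For MESP2 it was BMP4 at 72 and 96 h, then Activin+BMP4 at 72, 48 and 96 h, and no 2 neighbours among these 5 overlapped. For TBX6 the 2 late BMP4 groups stood clear of Activin+BMP4 at 48, 72 and 96 h, which overlapped with each other in turn. For PDGFRA, BMP4 at 96 h was above BMP4 at 72 h, which overlapped with Activin+BMP4 at 48 h. For TCF15 the highest group was Activin+BMP4 at 96 h, and groups next to each other in its order overlapped throughout.

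**Figure D4:**
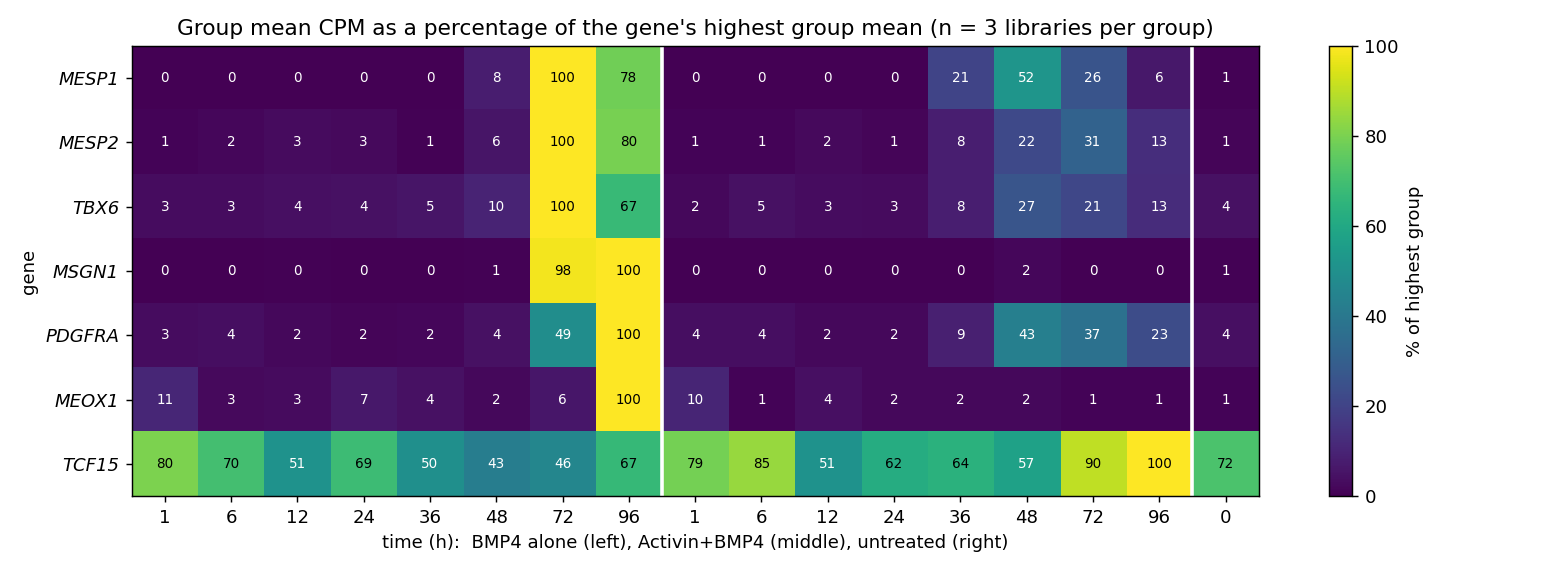
Mean CPM of each group (n = 3 libraries) as a percentage of the highest group of the same gene, with genes down the page and groups across it (BMP4 alone by time in hours, then Activin+BMP4 by time, then untreated). MESP1 reaches 52.2% of its highest level with Activin+BMP4 at 48 h, MESP2 at most 31.4%, TBX6 at most 26.5% and PDGFRA at most 43.1%, whereas TCF15 is at or above 42.6% in every group.

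Across the 17 group means of log2(CPM + 0.5), MESP1, MESP2, TBX6 and PDGFRA followed each other closely, with Pearson r between 0.911 and 0.979. The groups of a time course are not independent, so r is a description. MSGN1 correlated with these 4 at 0.667 to 0.826 and TCF15 at -0.165 to 0.152. Among 12651 other genes with at least 5 CPM in some group, the gene most like both TBX6 (r = 0.987) and MESP2 (r = 0.990) was RSPO3, a secreted amplifier of WNT signals expressed in mouse presomitic mesoderm. Close behind came FSHR (r = 0.986) and ANPEP (r = 0.970) for MESP2, and MPZL1 (r = 0.972) and FSHR (r = 0.967) for TBX6. The genes most like MESP1 were WNT5A (r = 0.981), a WNT ligand of the streak and tail bud, CNTFR and SNAI1, a repressor of epithelial cadherin. PDGFRA was most like COL5A1, ALPK2 and ADRA2C. MSGN1 was most like ITGB6, C1orf105 and CSF1R, and MEOX1 most like RGS1, EMP1 and NNMT. MSGN1 reached 10 counts in all 3 libraries of 2 groups only and MEOX1 of 1 group only. Every r of these 2 genes therefore rests on those late BMP4 groups and finds little more than genes high there. TCF15 had no partner above 0.878 (LOXL1-AS1).

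Genes known to act before, beside and after these 7 in mesoderm were counted by list. Of 15 inducers and streak factors, 11 were lower with BMP4 at 24 h and the other 4 were not called. At 36 h 12 were lower and 1 higher, and at 48 h 9 were lower and 1 higher. At 24 h none of the 5 counted genes was called. MIXL1, a homeobox gene of the streak, then averaged 1.24 ± 0.51 CPM with BMP4, against 109 ± 4.2 with Activin+BMP4 (SD, n = 3 each). TBXT (brachyury), a T-box factor of the streak, was at 1.35 ± 0.47 CPM with BMP4, against 43.0 ± 1.7 with Activin+BMP4 (log2 fold change -5.00 ± 0.16), and FGF8 was at -6.06 ± 0.25. At 96 h 9 of the 15 were higher and 5 lower with BMP4. CDX1, a caudal homeobox gene, was then at 12.1 ± 0.4 CPM with BMP4, against 0.116 ± 0.036 with Activin+BMP4, and LEF1, a transcription factor of the WNT pathway, was at 80.8 ± 1.8 CPM with BMP4, against 0.980 ± 0.267 with Activin+BMP4. FGF17 was lower, at 7.87 ± 0.81 CPM with BMP4, against 611 ± 28 CPM with Activin+BMP4. The list's median log2 fold change was -2.79 at 24 h and 1.33 at 96 h, beside 0.012 and 0.0049 over all genes.

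Of 12 genes of the somite clock and segmentation, 2 were higher and 5 lower with BMP4 at 48 h, 7 higher and 2 lower at 72 h, and 8 higher and 2 lower at 96 h. DLL3, a Notch ligand family member of the presomitic mesoderm, was at 1.15 ± 0.32 CPM with BMP4, against 10.9 ± 0.3 with Activin+BMP4 at 48 h. HES7, the oscillating repressor of the clock, was at 0.857 ± 0.150 CPM with BMP4, against 0.0678 ± 0.0602 with Activin+BMP4 at 72 h (log2 fold change 3.56 ± 0.65). RIPPLY1 and CYP26A1, a retinoic acid degrading enzyme, were lower with BMP4 at 72 and 96 h, CYP26A1 by 4.60 ± 0.14 on the log2 scale at 96 h. Of 15 genes listed for somites and their derivatives 9 were tested, and the others did not pass the filter. With BMP4, 4 were higher at 72 h and 5 at 96 h. The higher ones at both times included PAX2 and OSR1, which are not specific to somites and were named after their values were seen. At 96 h PAX3, a gene of the dermomyotome, was at 1.22 ± 0.51 CPM with BMP4, against 0.103 ± 0.104 with Activin+BMP4, and FOXC2 at 3.55 ± 0.49 CPM with BMP4, against 0.439 ± 0.390 with Activin+BMP4.

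Of 12 partners of nascent mesoderm, 7 were lower with BMP4 at 48 h, and 9 were higher and 1 lower at 96 h. The lower one at 96 h, named after its values were seen, was LHX1, at 38.7 ± 9.3 CPM with BMP4, against 101 ± 19 with Activin+BMP4. SNAI2 and FOXF1 were higher by a log2 fold change of 6.57 ± 0.15 and 6.42 ± 0.28 at 96 h. Of the 6 PDGF ligands and other receptors, PDGFRB was higher (95.5 ± 4.8 CPM with BMP4, against 10.7 ± 0.9 with Activin+BMP4 at 96 h) and PDGFD lower (3.73 ± 0.55 CPM with BMP4, against 10.8 ± 3.1 with Activin+BMP4). PDGFA, a ligand of PDGFRA and also named after its values were seen, was at 19.0 ± 1.7 CPM with BMP4, against 16.4 ± 5.0 with Activin+BMP4 at 96 h. Of 12 genes of cardiac mesoderm, a fate that MESP1-expressing cells also enter, 11 were tested and 7 were higher and 2 lower with BMP4 at 96 h, HAND2 by 7.28 ± 0.37 and ACTC1 by 6.71 ± 0.14. The 2 lower ones, named after their values were seen, were GATA4 and SMARCD3, and 1 of the 7 higher ones, ISL1, is also among the amnion markers below.

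**Figure D5:**
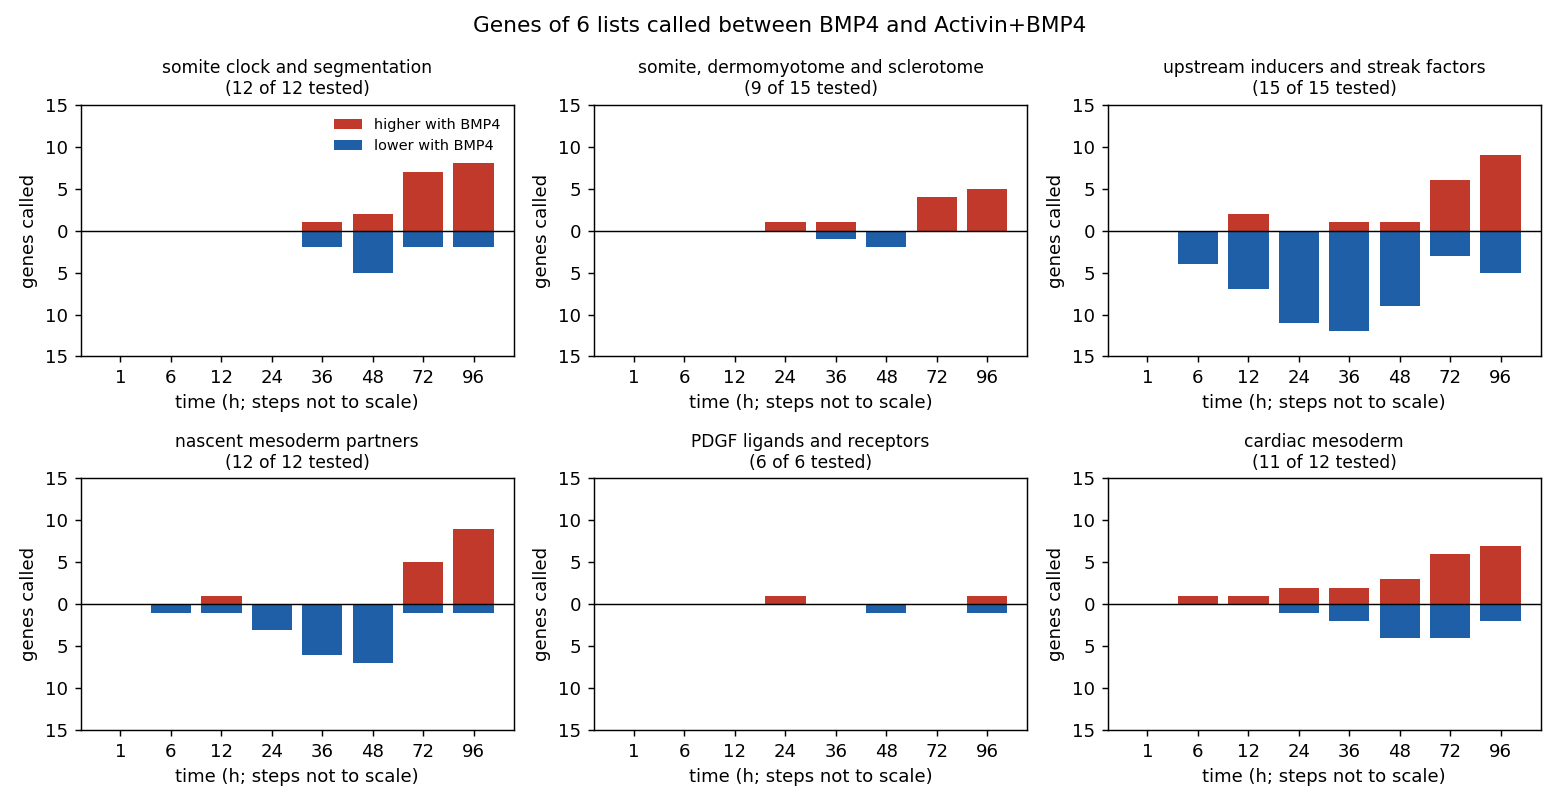
Number of genes called higher (red, upwards) or lower (blue, downwards) with BMP4 than with Activin+BMP4 in each of 6 lists, at each time in hours. Inducers and streak factors are called lower from 6 h, with 12 lower at 36 h, and turn to 9 higher and 5 lower at 96 h. Clock genes turn to 8 higher and 2 lower at 96 h and nascent mesoderm partners to 9 higher and 1 lower.

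Markers of other fates moved with the conditions. Summed over 6 genes, endoderm markers (SOX17, FOXA2, CXCR4, HHEX, CER1 and GATA6) ran from 125 to 144 CPM in BMP4 libraries and from 2961 to 3941 CPM in Activin+BMP4 libraries at 96 h. At 48 h, when MESP1 and PDGFRA were higher with Activin+BMP4, that sum was already 62.0 to 64.7 CPM with BMP4 and 1726 to 1850 CPM with Activin+BMP4. With Activin+BMP4 most of it was CER1, at 1494 ± 56 CPM at 48 h and 2917 ± 438 CPM at 96 h. FOXA2, CXCR4 and HHEX then averaged only 6.94, 6.96 and 6.13 CPM at 48 h, though each of the 6 means was higher with Activin+BMP4. The sum of 6 amnion markers (TFAP2A, ISL1, GABRP, IGFBP3, VTCN1 and WNT6) ran from 1386 to 1569 CPM with BMP4 and from 10.0 to 12.7 CPM with Activin+BMP4 at 96 h. The sum of 3 neural markers (PAX6, SOX1 and OTX2) ran from 76.2 to 93.3 CPM with BMP4 and from 300.3 to 357 CPM with Activin+BMP4. Most of it was OTX2, at 71.4 ± 7.5 CPM with BMP4, 295 ± 23 CPM with Activin+BMP4 and 80.5 ± 3.5 CPM in untreated cells. SOX1 had 6 counts over the BMP4 group and 1 over the Activin+BMP4 group. The part of these other cells in the levels of the 7 genes was not tested. The 4 markers of blood and endothelium summed to at most 1.23 CPM in every library.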

How the data were processed

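RNA from H1 cells was sequenced in 51 libraries, 3 in each of 17 groups. The deposited table holds whole-number counts per gene, and a symbol was found for 56948 of its 58051 rows. Per the submitters' processing notes, cutadapt 1.5, STAR 2.5.2a, RSEM 1.3.0 and GRCh38 were used. Their roles, the annotation, the strand setting and whether the counts are rounded RSEM estimates are not given in the sources used here, so ratios over 1 to 3 counts and the split of shared reads are uncertain. Per the labels' protocols, libraries were made from total RNA with the KAPA RNA HyperPrep Kit.

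The tests used edgeR 4.0.16 under R 4.3.3. The filter (filterByExpr, minimum count 10, minimum total 15) kept 19603 genes with 99.95% of counts, and libraries were scaled by TMM factors (0.966 to 1.03). All 51 libraries entered 1 fit with a mean for each group, which was tested with the quasi-likelihood F test in 40 comparisons, with Benjamini-Hochberg adjustment over all genes of a comparison. A gene was called at an adjusted p under 0.05 and at least 2-fold. Where a group held 0 counts, the change is given as a bound that puts 3 counts in its place and leaves out the counting error of the other group. Where it held 1 to 3, a ratio is given with a 95% interval that covers counting error only. Alternatives were RLE factors, no scaling, other filters, DESeq2 1.42.0, only the groups compared, a replicate block and each library left out. All 7 genes are named in every comparison, other genes by size of change within fixed lists (up to 4 per list) or likeness (the 3 highest Pearson correlations). The genes and lists were chosen with earlier results of these data known. Gene positions are from GENCODE 29 and sequences from RefSeq (GRCh38.p14).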

Additional observations from a re-analysis of the deposited data

Results flagged for a closer look

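The difference between the conditions itself differed between times by edgeR's interaction test, and these are the results picked out for a closer look. From 48 to 96 h the log2 fold change of BMP4 over Activin+BMP4 increased by 6.34 for MESP1, 4.50 for MESP2, 3.84 for TBX6 and 5.40 for PDGFRA. From 24 to 96 h it increased by 6.92 for MESP1, 1.65 for MESP2, 1.82 for TBX6 and 2.48 for PDGFRA. The value of MESP1 from 24 h rests on groups with 3 counts or fewer and sets no size. That of MESP2 from 24 h was at an edgeR adjusted p of 0.0423 and was lost without any 1 of 6 libraries, at 1.27 to 1.62. TCF15 was called in neither. MSGN1, at 10.16 from 48 h, and MEOX1, at 6.27 from 48 h and 4.88 from 24 h, are given as values only, since both passed the filter on low counts through late BMP4 groups and rest on groups with 6 counts or fewer. Without 1 Activin+BMP4 48 h library, replicate 3 for MSGN1 or replicate 1 for MEOX1, their calls from 48 h were lost.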

How the results depend on the processing

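Between BMP4 and Activin+BMP4, the number of the 7 genes called at each time stayed within 1.5 times under every alternative run, and no log2 fold change of theirs turned its sign where it was called. TCF15 at 72 h passed 2-fold without 1 of 3 libraries (-1.13, -1.11 and -1.02). The alternative without the 3 libraries that stood apart was chosen after seeing the data. The counts here are over all 7 genes, MSGN1 and MEOX1 included, and the causes of the moves were not tested. For Activin+BMP4 from 48 to 72 h, 1 gene rather than 0 was called with RLE factors, no filter, the stricter filter, only the groups compared, DESeq2 or without the libraries that stood apart. For BMP4 at 12 h against untreated cells it was 0 rather than 1 with no scaling or without those libraries, and at 24 h 1 rather than 2 with no filter, only the groups compared or DESeq2. For BMP4 from 72 to 96 h it was 1 rather than 2 with no scaling or the stricter filter, under which MSGN1 and MEOX1 were not tested. For Activin+BMP4 against untreated cells it was 1 rather than 0 at 1 h with no filter, and 1 rather than 2 at 12 h with only the groups compared. From 1 to 6 h it was 1 rather than 2 with the stricter filter or only the groups compared. The interaction from 24 to 96 h had 3 rather than 5 with no filter.

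Leaving out single libraries, the number called ran from 0 to 1 for Activin+BMP4 at 1 h and 0 to 2 at 12 h against untreated cells, and from 0 to 1 for BMP4 at 12 h and 1 to 2 at 24 h. It ran from 1 to 2 for Activin+BMP4 from 1 to 6 h, 0 to 1 from 48 to 72 h, 0 to 1 for BMP4 from 24 to 36 h, 1 to 2 from 72 to 96 h, and 3 to 5 for the interaction from 24 to 96 h. With a replicate block the counts over all 7 genes were the same, 4 at 48 h and 6 at 96 h among them. The 6 at 96 h include MSGN1 and MEOX1, and 4 of them are among the other 5 genes. The labels do not say whether the numbers pair the libraries. Same-numbered libraries deviated together (r over 0.1) in 7 of 24 pairs, which cannot settle it, since libraries of 1 culture or run need not deviate together. With a pseudocount of 0.1, 1 of the 3 genes most like MESP1 and 1 of those most like MSGN1 was shared. Depth limits MSGN1 and MEOX1, whose values outside late BMP4 rest on 10 counts or fewer per group.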
